A study of Mus musculus with 12 samples.

Results

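The genes described here are 35 that encode the chaperones, folding enzymes, degradation factors and stress sensors of the endoplasmic reticulum. They were chosen by symbol from the 54532 genes of the deposited count table, and all 35 symbols were found. They comprise 5 sensor genes, 13 chaperones and lectin-cycle genes, 7 disulfide isomerases and 10 genes of protein degradation. Xbp1, whose messenger a sensor splices, is counted with the sensor genes though it is not itself a sensor. The cells were C2C12, a mouse skeletal myoblast line, grown in petri dishes until fully confluent. They were then exposed for 24 h to perfluorooctanesulfonate (PFOS), a persistent fluorinated surfactant, at 0, 2 or 6 µM, and messenger RNA was sequenced in 4 libraries per dose, 12 in all. No genotype, transgene or second agent is named, and no source used here gives the vehicle of the 0 µM dishes. The question put to these genes was whether either dose moved their messenger RNA, and whether the doses differed.

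Secreted and membrane proteins fold in the endoplasmic reticulum with the help of luminal chaperones, lectins that bind sugar chains, and enzymes that form disulfide bonds. When unfolded protein builds up, the membrane sensors IRE1 (gene Ern1), PERK (gene Eif2ak3) and ATF6 start the unfolded protein response. IRE1 splices the Xbp1 messenger, PERK phosphorylates the initiation factor eIF2α so that ATF4 is made, and ATF6 is cut in the Golgi to release a transcription factor. Spliced XBP1 and cut ATF6 are known to raise chaperone and degradation genes, and ATF4 raises genes of amino acid supply and of stress recovery. In muscle the same organelle also stores calcium, which calreticulin (Calr) buffers.

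Total gene counts were between 30206155 and 50351082 per library, and tested members held 568 to 105773 counts in a library. Levels are given as CPM, a gene's counts scaled to a common library size after TMM adjustment, and a value after ± is the SD of 4 libraries. The labels do not say whether replicates were separate cultures. The p-values therefore cover the spread of these libraries alone, and that spread may be technical. All 6 myoblast markers, Myod1 and Des among them, were at 1 CPM or more at every dose. Summed over 6 markers of differentiated muscle, 5 of them at 1 CPM or more, the level ranged from 40.3 to 56.3 CPM without PFOS, from 29.1 to 42.6 at 2 µM and from 25.5 to 32.9 at 6 µM. In bulk RNA, fewer cells of a type and less RNA per cell cannot be told apart, and the part of these markers in the results below was not tested. Of 4 leukocyte and 4 adipocyte markers, none reached 1 CPM as a dose mean, and Cd3e and Adipoq were at 0 in all 12 libraries. Single markers of endothelium (Cdh5) and epithelium (Krt14), and the neuronal markers Syt1 and Tubb3, were above 1 CPM. Genes detected per library ranged from 19292 to 20110 at 6 µM and from 20377 to 21171 at 2 µM, against 20470 to 21040 without PFOS. The part of this in the results was not tested.

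Most of the 35 genes were measured close to their control level at both doses. Of the 34 members with enough counts to be tested, 4 were called in at least 1 of the 3 comparisons and 30 in none. Sdf2l1, a small cochaperone of the luminal HSP70 system, was lower at both doses, by 1.3-fold at 2 µM and 1.51-fold at 6 µM. Manf, a secreted luminal protein, was lower at 6 µM by 1.18-fold, and the sensor gene Atf6 was higher at 2 µM by 1.19-fold. Herpud1, a membrane protein of the degradation complex, was lower at 6 than at 2 µM by 1.13-fold. A call here is an adjusted p under 0.05, which is edgeR's quasi-likelihood p after Benjamini-Hochberg adjustment over all 16038 tested genes.

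At 2 µM against 0 µM, 1 member was called higher and 1 lower, 5.88% of the 34 members together, against 2.35% of all tested genes (1.61% higher and 0.742% lower). At 6 µM against 0 µM, none was called higher and 2 were called lower, again 5.88%, against 8.24% of all tested genes (4.58% higher and 3.66% lower). Between 6 and 2 µM, none was called higher and 1 lower, or 2.94%, against 1.11% of all tested genes (0.561% higher and 0.549% lower). Among the 7958 tested genes at least as abundant as the lowest tested member, 4% were called at 2 µM, 12.9% at 6 µM and 1.91% between the doses. The first and second of these comparisons share the 4 control libraries. At an unadjusted p under 0.05 the members counted 8, 14 and 4 in the same order. Those are 23.5%, 41.2% and 11.8% of the members, against 14.1%, 21.6% and 12.5% of all tested genes. DESeq2 called 2 members higher and 1 lower at 2 µM, 2 higher and 6 lower at 6 µM, and 0 and 1 between the doses. Its added calls were Herpud1 at 2 µM, and Hspa5, Sel1l, Dnajc3, Pdia3, Pdia6 and Dnajc10 at 6 µM. Over all genes DESeq2 called 530 higher and 214 lower at 2 µM, where the main edgeR fit called 258 and 119. At 6 µM the most over all genes in any setting was 1102 higher and 726 lower, against 735 and 587 in the main fit. Without 0 µM replicate 4, edgeR called 2 members higher and 5 lower at 6 µM. It then called 789 of all genes higher there, and no fit without a single library called more than 592 lower. Without 0 µM replicate 3 or 2 µM replicate 1, it called 2 members higher at 2 µM, with 188 and 206 of all genes higher.

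The median log2 fold change of the members was -0.05 at 2 µM and -0.05 at 6 µM, where all tested genes had medians of -0.01 and -0.02. Values lay below 0 for 24 of 34 members at 2 µM and for 23 at 6 µM. Of all 16038 tested genes, 8486 and 8603 lay below 0. The 95% interval of the fold change stayed within 1.3-fold in either direction for 33 of 34 members at each dose, with Sdf2l1 the exception, and for all 34 between the doses. The 4 libraries of each dose did not overlap with the controls for 6 members at 2 µM, 17.6% against 8.37% of all tested genes. At 6 µM they did not overlap for 7, 20.6% against 12.5%. Between the doses 5 members, 14.7% against 8.6%, had no overlap.

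**Figure D1:**
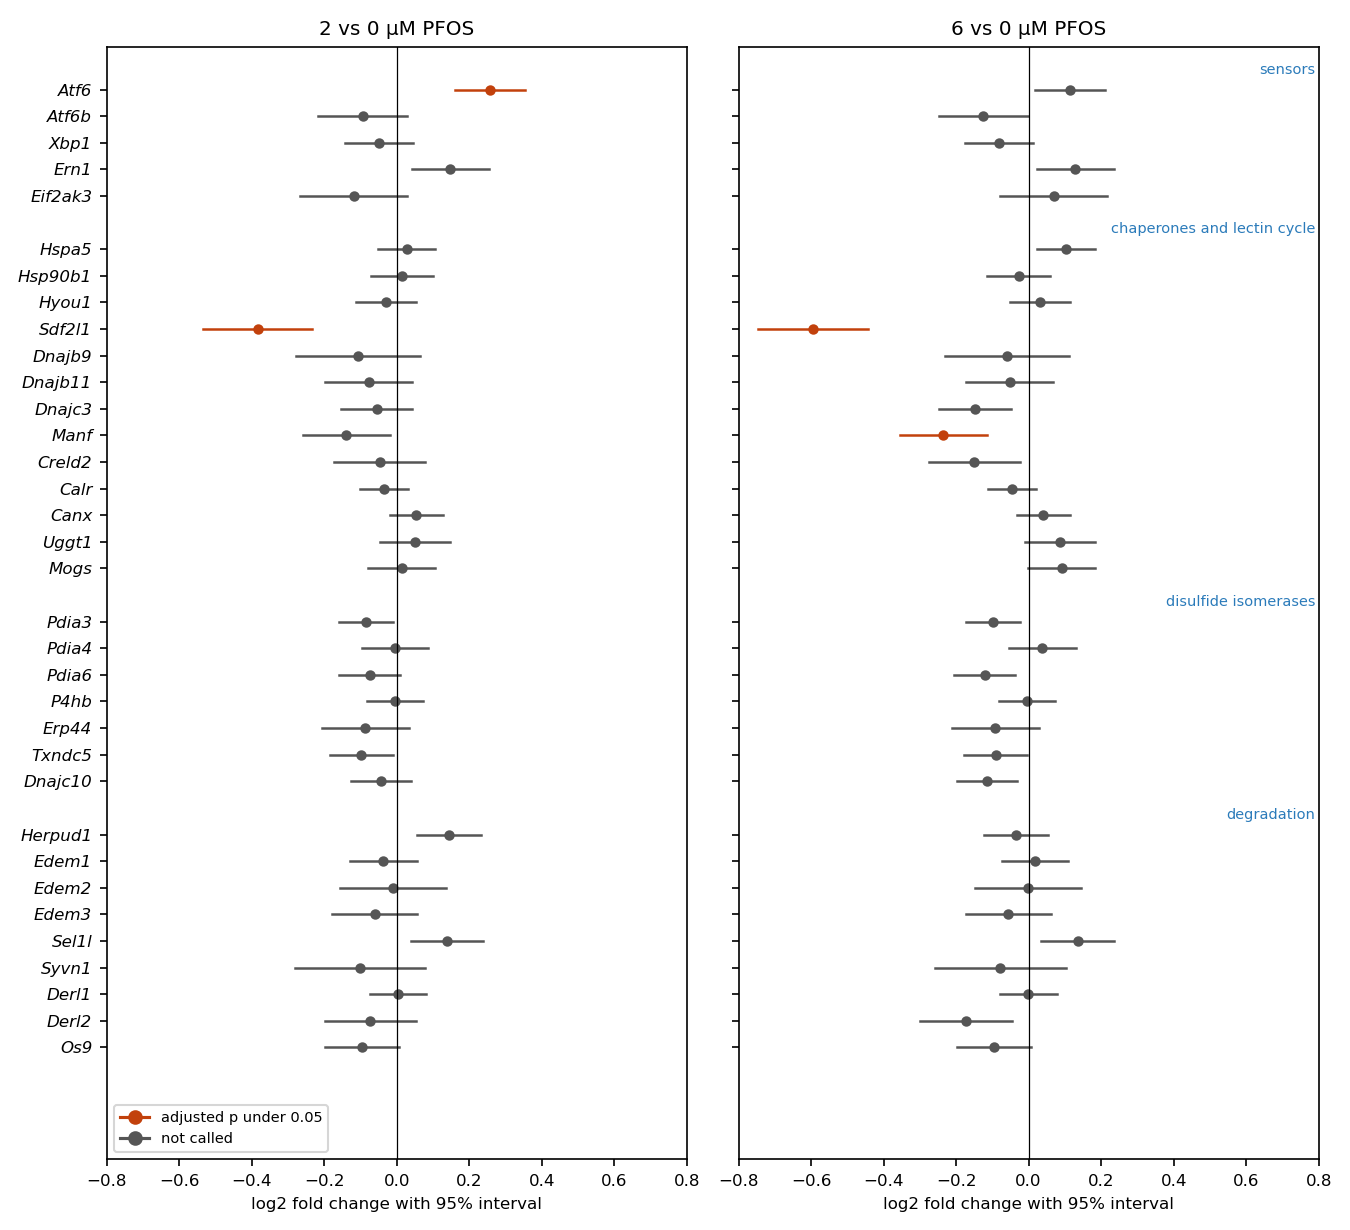
Log2 fold change of each of the 34 tested members at 2 µM (left) and 6 µM (right) against 0 µM, with 95% intervals from edgeR. Points called at an adjusted p under 0.05 are orange and the rest grey. Sdf2l1 at -0.38 and -0.60 lies furthest from 0, and 33 of 34 intervals in each panel lie within 1.3-fold.

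Promoter sequences were examined because these genes are classical targets of ATF6 and XBP1, which act at the endoplasmic reticulum stress element (ERSE). The ERSE was searched on both strands as CCAAT and CCACG with any 9 bases between them. The window ran from 250 bases before to 50 after each RefSeq start site (GRCm38.p6). Such a window was available for 31 of the 35 members. The other 4, Atf6, Derl1, Hyou1 and Manf, had none and were not searched. The ERSE was found in 9 of the 31 members (29%) and in 37 of all 27025 gene symbols in the promoter table (0.137%). The second form, ERSE-II, was searched as ATTGG and CCACG with any 1 base between them and found in 2 members, Herpud1 and Dnajb11 (6.45%), and in 0.0444% of all symbols. The XBP1 site TGACGTGG was found in 1 member, Txndc5, and in 0.714% of all symbols. The ATF4-type site TGATGCAA was found in 1 member, Herpud1, and in 1.03% of all symbols. The members were chosen as genes of this response and are counted among all symbols. A high member share was thus likely beforehand and is not a test. A match describes letters and is neither a bound site nor a cause. The elements read 5′ to 3′ along the motif, with the CCAAT or ATTGG box and the CCACG box in capitals, since they are the shared sequence of genes that differ in level and role.
Hspa5: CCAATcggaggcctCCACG
Calr: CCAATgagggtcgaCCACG
Hsp90b1, distal: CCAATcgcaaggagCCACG
Hsp90b1, proximal: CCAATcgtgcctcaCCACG
Canx: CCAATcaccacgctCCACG
Pdia6: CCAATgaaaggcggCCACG
Dnajc3: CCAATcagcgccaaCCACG
Creld2: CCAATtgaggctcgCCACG
Syvn1: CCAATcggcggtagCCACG
Derl3: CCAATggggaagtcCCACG
Herpud1, ERSE-II: ATTGGgCCACG
Dnajb11, ERSE-II: ATTGGcCCACG

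The Hspa5 element lay at chr2:34772025-34772043, its first base at -65 from the start site, whose own base is counted as 0. The Calr element (chr8:84847075-84847093, first base at -162) and the proximal Hsp90b1 element (chr10:86705533-86705551, first base at -107) read on the strand opposite to the gene. The Herpud1 element lay at chr8:94386377-94386387, first base at -52. Of the 9 genes with an ERSE, 8 were tested and none was called in any comparison in the main edgeR fit. Over all tested genes, 2.35% were called at 2 µM, 8.24% at 6 µM and 1.11% between the doses. With only 8 genes, having none called is near those shares. The 8 genes had a median log2 fold change of -0.04 at 2 µM, -0.06 at 6 µM and -0.03 between the doses. DESeq2 called Hspa5 higher and Dnajc3 and Pdia6 lower at 6 µM, and each of these calls was also made in at least 1 alternative edgeR setting.

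The bases before the start site are printed for the 2 called genes that had a promoter sequence. They are Sdf2l1, which fell at both doses, and Herpud1, called lower at 6 than at 2 µM in the main fit. For the called genes Atf6 and Manf no promoter sequence was available. For Sdf2l1, on chr16:17132384-17132633 (minus strand, GRCm38), capitals mark CCAAT and CCACG on either strand. The 250 bases hold 3 of each, at no place with the ERSE spacing, so the exact motif was not found in this window.
Sdf2l1 promoter: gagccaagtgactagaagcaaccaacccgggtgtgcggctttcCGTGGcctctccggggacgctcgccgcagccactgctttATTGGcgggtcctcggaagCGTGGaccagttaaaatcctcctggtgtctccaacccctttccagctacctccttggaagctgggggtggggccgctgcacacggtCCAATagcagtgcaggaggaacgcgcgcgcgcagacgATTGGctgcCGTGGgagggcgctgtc
For Herpud1, on chr8:94386179-94386428 (plus strand, GRCm38), capitals mark the ERSE-II boxes and the ATF4-type site, the latter on the opposite strand with its first base at -112.
Herpud1 promoter: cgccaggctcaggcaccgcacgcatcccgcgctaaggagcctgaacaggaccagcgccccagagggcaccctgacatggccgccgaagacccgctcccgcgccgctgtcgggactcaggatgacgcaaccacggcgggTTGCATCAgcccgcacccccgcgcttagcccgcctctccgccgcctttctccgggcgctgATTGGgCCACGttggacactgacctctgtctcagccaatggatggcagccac

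Of the 5 sensor genes, with Xbp1 counted among them, 1 was called at 2 µM and none at 6 µM or between the doses. Atf6 (ENSMUSG00000026663, chr1:170704674-170867771, minus strand, GRCm38) encodes the sensor that becomes a transcription factor after cutting. It was at 189, 172, 185 and 191 CPM without PFOS, at 208, 217, 224 and 232 CPM at 2 µM, and at 188, 205, 206 and 198 CPM at 6 µM. Every 2 µM library lay above every control library, and the 6 µM libraries lay below the 2 µM ones and overlapped the controls. The means were 184 ± 8.80, 220.3 ± 10.3 and 199 ± 8.06 CPM (SD, n = 4 each). The log2 fold change at 2 µM was 0.26 (SE 0.0465, edgeR adjusted p = 0.00481). At 6 µM it was 0.11 (adjusted p = 0.147), and between the doses it was -0.14 (95% interval -0.24 to -0.05, adjusted p = 0.158), so the doses were not shown to differ.

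Ern1, the gene of the kinase and nuclease IRE1, stood at 73.0, 68.7, 70.2 and 71.4 CPM without PFOS. The 2 µM libraries had 74.1, 80.1, 77.1 and 82.3 CPM, and the 6 µM libraries 76.2, 81.3, 78.8 and 73.2 CPM. Treated libraries at both doses lay above all 4 controls, by a narrow margin at 6 µM, yet the gene was not called. Its log2 fold changes were 0.15 (SE 0.0508, adjusted p = 0.15) and 0.13 (SE 0.0508, adjusted p = 0.13). Between the doses the value was -0.02 (adjusted p = 0.932).

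Xbp1, whose messenger IRE1 splices, had 147, 149.6, 155 and 139.6 CPM without PFOS, 147, 148, 134 and 142 CPM at 2 µM, and 138, 139.5, 143 and 138 CPM at 6 µM. The groups overlapped, and the log2 values were -0.05 (SE 0.0451, adjusted p = 0.681) and -0.08 (SE 0.0451, adjusted p = 0.306). These are gene counts and do not separate the spliced from the unspliced messenger. Atf6b, the gene of the ATF6 relative, was at 69.8, 75.3, 78.2 and 84.3 CPM without PFOS, at 78.0, 66.4, 72.2 and 71.6 CPM at 2 µM, and at 70.4, 68.1, 70.9 and 72.7 CPM at 6 µM. Its groups overlapped as well, with log2 values of -0.09 (SE 0.0595, adjusted p = 0.516) and -0.12 (SE 0.0596, adjusted p = 0.227). Eif2ak3, the gene of the kinase PERK, had 35.8, 34.4, 35.7 and 36.1 CPM without PFOS, 35.4, 31.3, 34.3 and 29.7 CPM at 2 µM, and 34.7, 35.6, 41.8 and 36.8 CPM at 6 µM. All 3 groups overlapped. The largest of its log2 values was between the doses, 0.19 (SE 0.0707, adjusted p = 0.241), and against 0 µM the values were -0.12 (adjusted p = 0.483) and 0.07 (adjusted p = 0.633).

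Among the 13 chaperones and lectin-cycle genes, the main edgeR fit called 1 lower at 2 µM, 2 lower at 6 µM, and none higher. Sdf2l1 (ENSMUSG00000022769, chr16:17130138-17132383, minus strand) showed the largest change of all 34 tested members. It was at 30.6, 31.0, 30.2 and 31.4 CPM without PFOS, at 25.2, 25.5, 21.4 and 22.3 CPM at 2 µM, and at 19.8, 21.1, 21.2 and 19.4 CPM at 6 µM. The 3 doses did not overlap at any point. The means were 30.8 ± 0.53, 23.6 ± 2.05 and 20.4 ± 0.91 CPM (SD, n = 4 each). Sdf2l1 fell by 0.38 on the log2 scale at 2 µM (SE 0.0725, edgeR adjusted p = 0.0072) and by 0.60 at 6 µM (SE 0.0730, adjusted p = 1.35e-05). The value between the doses was -0.21 (95% interval -0.36 to -0.06, adjusted p = 0.195) and was not called.

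Sdf2l1 was also the shortest of the 35 genes, with 1108 bases of gene length against a median of 3524, and short genes as a whole had slightly lower values. The 2180 tested genes of 1000 to 2000 bases had a median log2 fold change of -0.05 at 2 µM and -0.06 at 6 µM. With average trends on length and GC content removed, Sdf2l1 had -0.33 (edgeR adjusted p = 0.00534) and -0.57 (adjusted p = 4.28e-06). The part of length in the fall of this gene was not tested. Sdf2, the paralogue of Sdf2l1, was named after the values were seen. It had log2 values of -0.12 at both doses (adjusted p = 0.373 and 0.243) and was not called.

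Manf (ENSMUSG00000032575, chr9:106838312-106891979, minus strand) encodes a small luminal protein that is released under stress. It stood at 101, 98.4, 93.2 and 105 CPM without PFOS, at 100.5, 90.9, 85.5 and 83.5 CPM at 2 µM, and at 82.3, 80.1, 86.2 and 88.6 CPM at 6 µM. The 6 µM libraries all lay below the controls, while the 2 µM libraries overlapped both other groups. Manf fell by 0.24 on the log2 scale at 6 µM (SE 0.0578, edgeR adjusted p = 0.0126), from 99.3 ± 4.87 to 84.3 ± 3.83 CPM (SD, n = 4 each). At 2 µM the value was -0.14 (adjusted p = 0.252), and between the doses it was -0.10 (adjusted p = 0.536). The 6 µM call ended when 0 µM replicate 1 and 6 µM replicates 2 and 3 were left out together, with a log2 value of -0.20 (adjusted p = 0.144). Manf shares 146 exon bases, 4.14% of its own, with Dcaf1 on the opposite strand, and the strand setting of the counting is not given in the sources used here.

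Hspa5, the gene of the luminal HSP70 called BiP or GRP78 and the usual readout of the unfolded protein response, was not called at either dose. It was at 642, 657, 601 and 679.8 CPM without PFOS, at 672, 646, 661 and 649 CPM at 2 µM, and at 687, 672, 711 and 701 CPM at 6 µM. Only the lowest 6 µM library overlapped the controls. The log2 fold change was 0.03 at 2 µM (SE 0.0383, 95% interval -0.05 to 0.11, edgeR adjusted p = 0.819). At 6 µM it was 0.10 (SE 0.0383, interval 0.02 to 0.18, adjusted p = 0.106). There DESeq2 called the gene higher, as did edgeR without 0 µM replicate 4.

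Hsp90b1, the gene of the luminal HSP90 called GRP94, had 871, 818, 782 and 772 CPM without PFOS, 831, 845, 808 and 789 CPM at 2 µM, and 745, 810.2, 805 and 819 CPM at 6 µM. Its groups overlapped, with log2 values of 0.01 (SE 0.0417, adjusted p = 0.92) and -0.03 (SE 0.0417, adjusted p = 0.758). Calr, the gene of calreticulin, a calcium-binding lectin chaperone, had 1422, 1416, 1459 and 1449 CPM without PFOS, 1446, 1416, 1379.6 and 1369 CPM at 2 µM, and 1417, 1336, 1419 and 1397 CPM at 6 µM. These too overlapped, with log2 values of -0.03 (SE 0.0320, adjusted p = 0.697) and -0.05 (SE 0.0320, adjusted p = 0.448).

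None of the other 8 genes of this group was called in the main edgeR fit. Dnajc3, the gene of the cochaperone P58IPK, came nearest at 6 µM with a log2 value of -0.15 (adjusted p = 0.056). Its libraries of 88.6 to 95.5 CPM lay below the controls of 99.8 to 106 CPM. Dnajc3 was called lower there by DESeq2, with upper-quartile scaling and with a filter on a mean count of at least 50. Creld2, a luminal protein with isomerase-like motifs, had -0.15 at 6 µM (adjusted p = 0.142). Dnajb9 and Dnajb11, cochaperones of BiP, had log2 values of -0.11 and -0.08 at 2 µM and of -0.06 and -0.05 at 6 µM. Hyou1, a large luminal HSP70 relative, had -0.03 and 0.03. The membrane lectin gene Canx, the folding-sensor gene Uggt1 and the glucosidase gene Mogs, which serve the calnexin cycle with Calr, had log2 values of 0.05, 0.05 and 0.01 at 2 µM. At 6 µM their values were 0.04, 0.09 and 0.09, with adjusted p from 0.236 to 0.565.

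**Figure D2:**
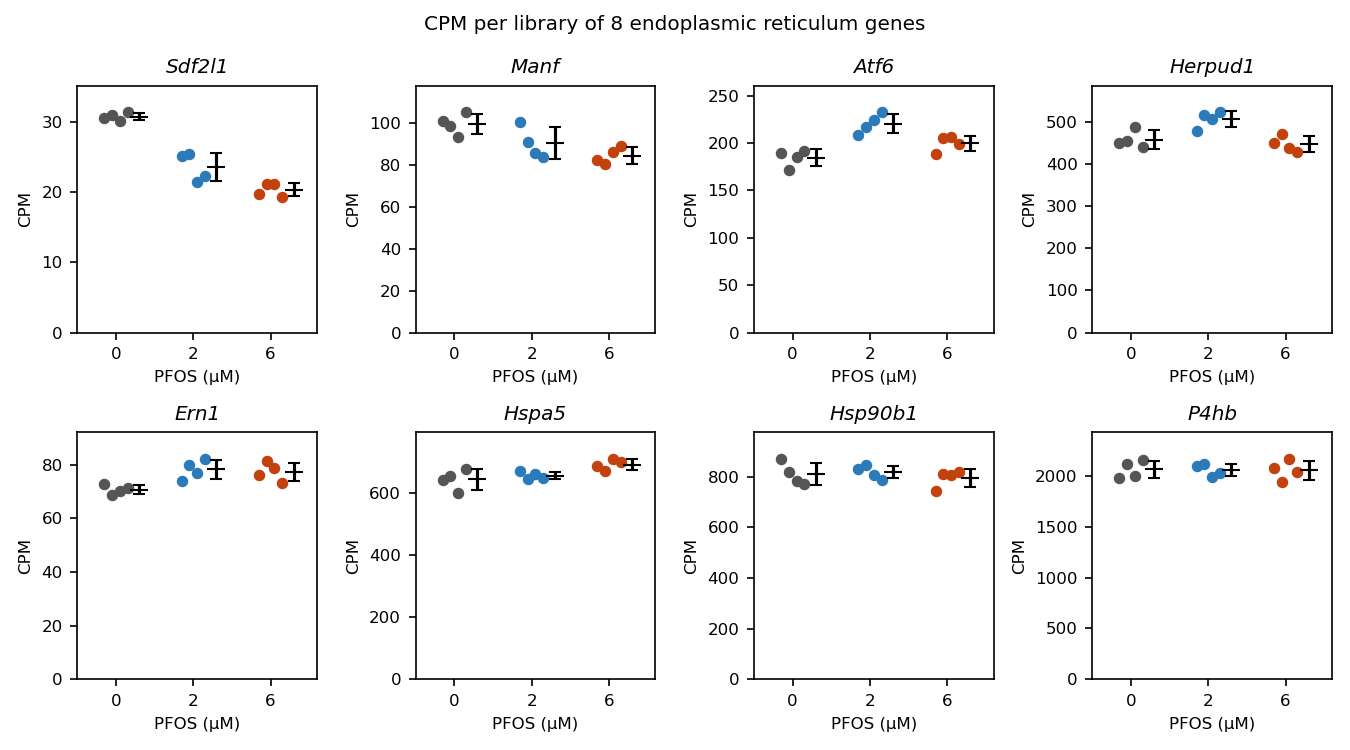
CPM of 8 members in each of the 12 libraries by PFOS dose, with points for libraries and bars for mean ± SD of 4. The vertical axes start at 0. Sdf2l1 separates at each dose (30.2 to 31.4, 21.4 to 25.5 and 19.4 to 21.2 CPM), while Hsp90b1 and P4hb overlap throughout.

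The 7 disulfide isomerases form and rearrange disulfide bonds in the lumen, and none was called in any comparison in the main edgeR fit. All 7 had log2 values below 0 at 2 µM, with a median of -0.08, and 6 of 7 did at 6 µM, with a median of -0.09. Of all 16038 tested genes, 8486 and 8603 lay below 0, with medians of -0.01 and -0.02. The exception at 6 µM was Pdia4, at 0.04 (adjusted p = 0.683). At an unadjusted p under 0.05 the group counted 2 genes at 2 µM, 4 at 6 µM and none between the doses. The shares of all tested genes at that threshold were 14.1%, 21.6% and 12.5%. DESeq2 called 3 isomerase genes lower at 6 µM (Pdia3, Pdia6 and Dnajc10). With upper-quartile scaling, and without 0 µM replicate 4, edgeR also called Pdia6 and Dnajc10 lower there. Pdia6 was also called lower at 6 µM with length and GC trends removed.

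P4hb, the gene of the founding protein disulfide isomerase, had 1985, 2122, 1997 and 2159 CPM without PFOS, 2098, 2119, 1989 and 2028 CPM at 2 µM, and 2084, 1945, 2169.7 and 2041 CPM at 6 µM. The groups overlapped fully. Both log2 values rounded to -0.00 (SE 0.0373, edgeR adjusted p = 0.973 and 0.969), with a 95% interval of -0.08 to 0.07 at each dose. Pdia3, the isomerase that works with calnexin and calreticulin, had libraries of 441 to 467 CPM without PFOS, 419 to 437 CPM at 2 µM and 411 to 439 CPM at 6 µM. Neither treated group overlapped the controls, and its log2 values were -0.08 (adjusted p = 0.266) and -0.10 (adjusted p = 0.0974). Pdia6 had -0.12 (adjusted p = 0.0713) and Dnajc10, a reductase with a J domain, -0.12 (adjusted p = 0.0779) at 6 µM, both without overlap. Txndc5 had -0.10 at 2 µM and -0.09 at 6 µM, and Erp44, which retrieves client proteins from the Golgi, had -0.09 at both.

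Of the 10 degradation genes, which mark, retrotranslocate or ubiquitinate misfolded protein, 9 were tested. None of them was called against 0 µM in the main edgeR fit. Herpud1 (ENSMUSG00000031770, chr8:94386438-94395377, plus strand) was at 450.0, 453, 488 and 439 CPM without PFOS, at 479, 517, 507 and 522 CPM at 2 µM, and at 449.6, 471, 438 and 428 CPM at 6 µM. The 2 µM libraries were the highest group and did not overlap the 6 µM libraries, though 1 of them lay inside the control range. Herpud1 was lower at 6 than at 2 µM by 0.18 on the log2 scale (value -0.18, SE 0.0424, edgeR adjusted p = 0.0391), with means of 447 ± 18.4 and 506 ± 19.3 CPM (SD, n = 4 each). Against 0 µM its values were 0.14 (adjusted p = 0.0793) and -0.04 (adjusted p = 0.696). The call between the doses did not hold in every fit without a single library, though the log2 value stayed between -0.18 and -0.16 in the fits that lost it. It was lost when 2 µM replicate 2, 3 or 4 was left out (adjusted p = 0.126, 0.114 and 0.144). It was also lost without 6 µM replicate 1, 3 or 4 (adjusted p = 0.1, 0.146 and 0.147).

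None of the other 8 tested degradation genes was called in any comparison in the main edgeR fit. At 6 µM, DESeq2 called Sel1l higher. Without 0 µM replicate 4, edgeR called Sel1l higher and Derl2 lower at 6 µM. Derl2 was also called lower there without 6 µM replicate 2. Sel1l, the gene of the adaptor of the ubiquitin ligase HRD1, had 161, 145, 152 and 166 CPM without PFOS, 176, 167, 169 and 175 CPM at 2 µM, and 180.1, 166, 177 and 162 CPM at 6 µM. The 2 µM libraries lay just above the controls, and the log2 values were 0.14 (adjusted p = 0.156) and 0.14 (adjusted p = 0.0913). Syvn1, the gene of HRD1 itself, had values of -0.10 and -0.08 and the widest spread among controls, a coefficient of variation of 13.8% where the median member had 4.32%. Derl2, a derlin of the retrotranslocation channel, had -0.07 and -0.17 (adjusted p = 0.648 and 0.0865), and Derl1 had 0.00 and -0.00. The mannosidase-like genes Edem1, Edem2 and Edem3 had log2 values from -0.06 to 0.02 over both doses. Os9, a lectin that hands substrates to HRD1, had -0.10 and -0.09. Syvn1 shares 91 exon bases with Mrpl49 and Derl2 shares 231 with Mis12, both on the opposite strand.

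Derl3, the third derlin gene, was barely detected and was left out by the count filter. It had 0, 2, 5 and 4 counts without PFOS, 4, 1, 2 and 2 counts at 2 µM, and 2, 0, 6 and 2 counts at 6 µM, 30 in total. For the 2 libraries at 0, a count of 0 allows a level of up to 0.0918 CPM (0 µM replicate 1) and 0.0677 CPM (6 µM replicate 2), which covers counting error only. No fold change was taken for it.

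Levels between genes were compared per gene length, as RPKM, which is CPM divided by the gene's length in kilobases, without PFOS. P4hb was the most abundant at 722 ± 30.6 RPKM, followed by Calr at 499 ± 7.28 (SD, n = 4 each). Hsp90b1 at 201 ± 11.1 and Herpud1 at 196 ± 9.19 RPKM came next and did not differ beyond their spread. Hspa5 at 153 ± 7.81, Canx at 151 ± 5.21 and Pdia3 at 145 ± 3.46 RPKM formed another overlapping set. The sensor genes spread from above to below the middle of the order, with Xbp1 at 45.5, Atf6b at 27.9, Atf6 at 19.98, Ern1 at 8.66 and Eif2ak3, the lowest tested member, at 5.89 RPKM. The median over the 34 tested members was 28.0 RPKM, which placed Manf at 28.2 and Sdf2l1 at 27.8 RPKM near the middle. The summed level of all 35 genes was 10057 ± 61.9 CPM without PFOS, 10032 ± 143 at 2 µM and 9931 ± 188 at 6 µM (SD, n = 4 each), with overlapping ranges. P4hb, Calr and Hsp90b1 made up 42.9% of the control sum.

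**Figure D3:**
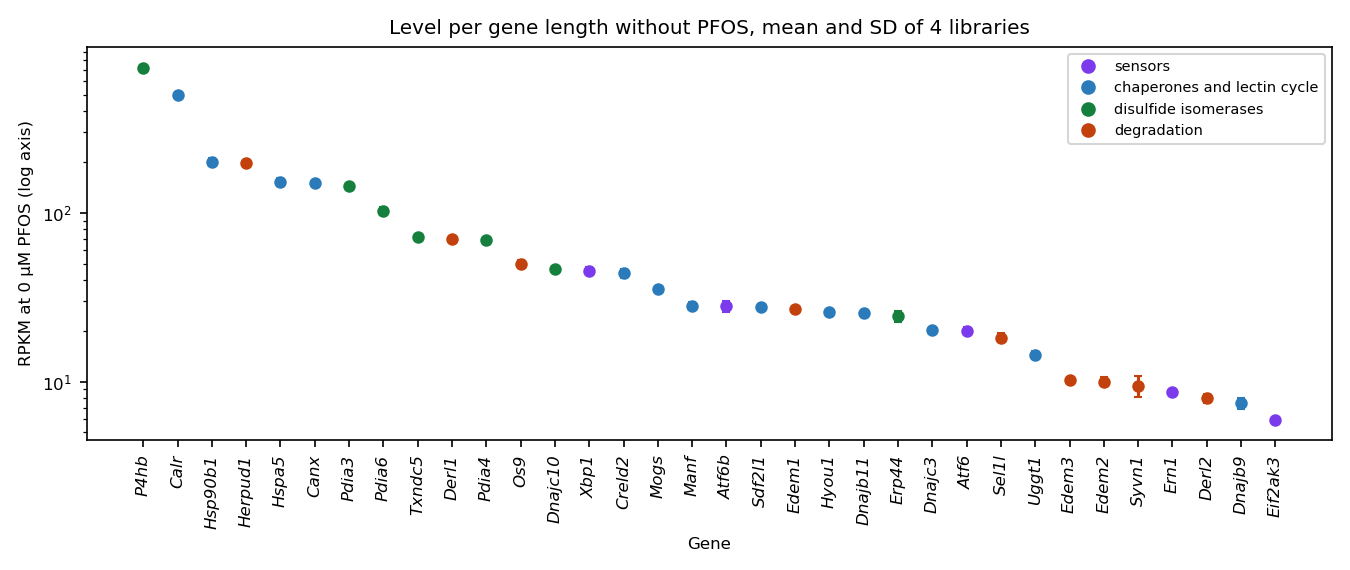
Level of each of the 34 tested members without PFOS in RPKM on a log axis, in falling order, as mean and SD of 4 libraries and coloured by role. P4hb at 722 RPKM is the highest and Eif2ak3 at 5.89 the lowest. Among the sensor genes, Xbp1 lies above the median of 28.0 RPKM, Atf6b next to it, and Atf6, Ern1 and Eif2ak3 below it.

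Other genes of the same pathways were taken from 4 lists and counted in the same fit. Their counts stand beside these shares of all tested genes: 1.61% higher and 0.742% lower at 2 µM, 4.58% and 3.66% at 6 µM, and 0.561% and 0.549% between the doses. Among genes at least as abundant as the lowest tested member, 4%, 12.9% and 1.91% were called either way. The list of eIF2α and ATF4 output had 14 tested genes. Of these, 8 were called higher and none lower at 2 µM, 5 higher and 1 lower at 6 µM, and none higher and 2 lower between the doses. The list had median log2 fold changes of 0.21, 0.12 and -0.09, where all tested genes had -0.01, -0.02 and -0.00. Whether PERK had a part in these calls was not tested. The count of 8 was 5 with upper-quartile scaling and without 0 µM replicate 2 or 2 µM replicate 1 or 2. It was 4 without 0 µM replicate 4 and 3 without 2 µM replicate 4. At 6 µM the count of 5 was 3 without 0 µM replicate 1 and 6 µM replicates 2 and 3 together. The 2 lower calls between the doses, Chac1 and Nupr1, were 0 or 1 without any one of 10 libraries, all but 0 µM replicates 1 and 4, where they were 3.

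Ppp1r15a (GADD34), a phosphatase subunit that reverses eIF2α phosphorylation, rose 1.72-fold at 2 µM and 1.39-fold at 6 µM (edgeR adjusted p = 8.64e-05 and 0.00231). Atf3, a stress transcription factor, rose 1.74-fold and 1.56-fold (adjusted p = 0.000163 and 0.000351). Chac1, which breaks down glutathione, fell by 0.24 on the log2 scale at 6 µM (adjusted p = 0.0023). Between the doses its value was -0.20 (adjusted p = 0.0456), a call that ended without any one of 9 libraries, such as 2 µM replicate 2 (adjusted p = 0.15). Ddit3 (CHOP), a transcription factor of the same list, was named after the values were seen. It had log2 values of 0.28 (edgeR adjusted p = 0.0755) and 0.05 (adjusted p = 0.808) and was not called in the main fit. Its 2 µM libraries did not overlap the controls, and 7 of the 21 alternative settings called it higher at 2 µM, DESeq2 among them.

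The 46 tested genes of translocation, glycosylation and folding had 1 higher and 1 lower call at 2 µM, 1 higher and 6 lower at 6 µM, and none between the doses. Their medians were -0.04, -0.05 and 0.00. Ero1l, the oxidase that recharges the disulfide isomerases, rose from 1997 ± 63.7 to 2744 ± 154 and 2885 ± 83.4 CPM, or 1.37-fold and 1.44-fold (edgeR adjusted p = 2.46e-07 and 2.95e-09). It was called higher at both doses, where none of the 7 isomerase members was called in the main edgeR fit. Whether Ero1l and the isomerases differed in their change was not tested. Fkbp14, a prolyl isomerase that acts on collagen, fell from 42.2 ± 2.38 to 34.0 ± 2.87 and 31.8 ± 2.79 CPM (adjusted p = 0.0265 and 0.00109). Its 2 µM call, the 1 lower call of the list at that dose, ended without 0 µM replicate 2 or 4 or 2 µM replicate 2, 3 or 4 (adjusted p = 0.0929, 0.0735, 0.0889, 0.0614 and 0.141). Ostc, a subunit of the oligosaccharyl transferase, fell by 0.21 on the log2 scale at 6 µM (adjusted p = 0.00624), and the call ended without 0 µM replicate 1 and 6 µM replicates 2 and 3 together (adjusted p = 0.197). The 6 lower calls at 6 µM were 3 without 0 µM replicate 2 or 6 µM replicate 2, and 2 without those 3 libraries.

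The 24 tested genes of the degradation machinery had 1 higher and 1 lower call at each dose and none between the doses, with medians of 0.02, 0.02 and -0.01. Selenos, a membrane selenoprotein that recruits the ATPase p97 to the derlins, was at 50.4 ± 2.68, 39.5 ± 1.51 and 35.9 ± 2.10 CPM. It fell by 0.35 and 0.49 on the log2 scale (edgeR adjusted p = 0.00349 and 1.86e-05). Erlin1, part of a complex that targets calcium channels for degradation, rose 1.2-fold at both doses, from 76.0 ± 4.35 to 91.4 ± 5.28 and 91.4 ± 3.74 CPM (adjusted p = 0.0111 and 0.00286). Its 2 µM call ended without 2 µM replicate 4 (adjusted p = 0.0715). Erlec1, a lectin, had a log2 value of -0.16 at 6 µM (adjusted p = 0.103) and was not called.

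The list of sensor processing and relatives, which holds the proteases that cut ATF6 and the ligase that joins Xbp1, had 14 tested genes. None was called at 2 µM or between the doses, and 1 was called higher at 6 µM. That gene was Wfs1, which encodes the membrane protein wolframin, at 21.6 ± 1.70 CPM without PFOS and 26.3 ± 2.14 CPM at 6 µM (log2 fold change 0.29, edgeR adjusted p = 0.0386). At 2 µM Wfs1 had a like value, 26.4 ± 2.53 CPM without overlap with the controls (log2 fold change 0.29, adjusted p = 0.0715), and was called there by DESeq2. Between the doses its value was -0.01 (adjusted p = 0.984). The 6 µM call ended without 0 µM replicate 1, 2 or 3 (adjusted p = 0.0738, 0.129 and 0.0606) and without 6 µM replicate 1 or 4 (0.102 and 0.123), and with upper-quartile scaling (0.0526). The protease gene Mbtps2 had 0.15 (adjusted p = 0.113) and the ligase gene Rtcb 0.10 (adjusted p = 0.147) at 6 µM.

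**Figure D4:**
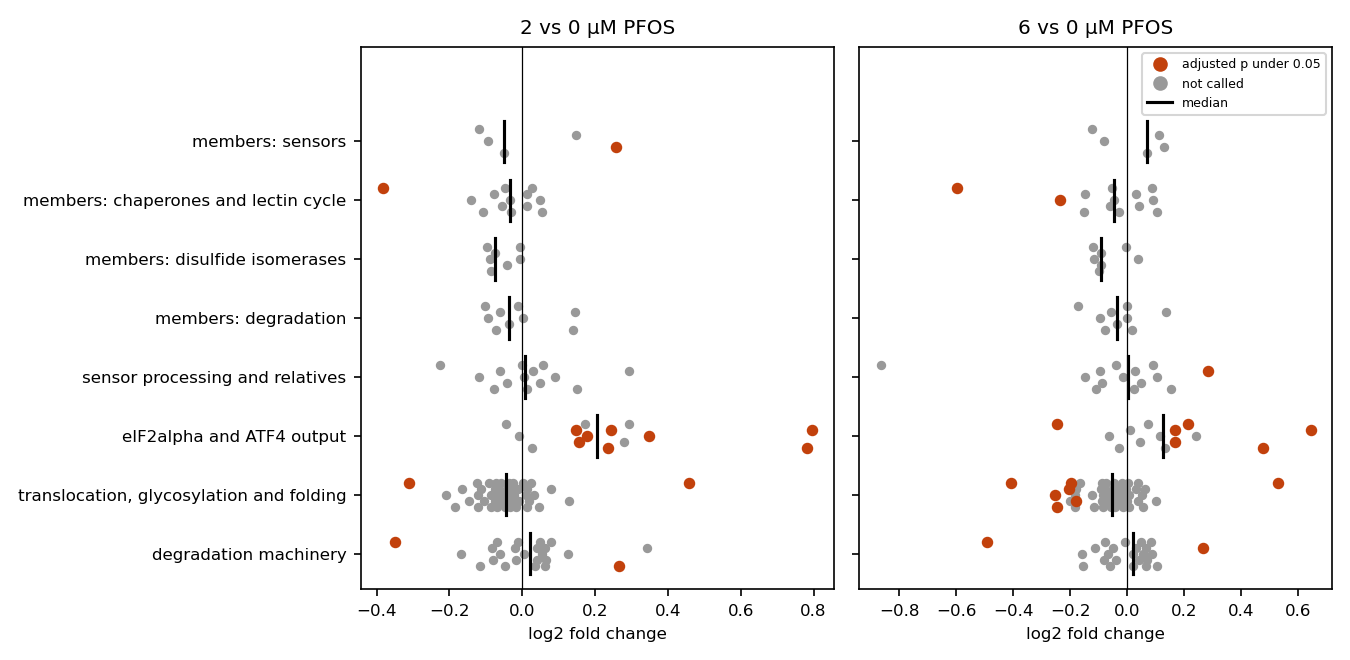
Log2 fold change at 2 µM (left) and 6 µM (right) against 0 µM for each tested gene of the 4 member groups and the 4 further lists, with a bar at each median and orange points for calls at an adjusted p under 0.05. The eIF2α and ATF4 list has medians of 0.21 and 0.12 with 8 and 5 higher calls, while the member groups lie close to 0. Of all tested genes, 1.61% and 4.58% were called higher.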

How the data were processed

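Messenger RNA libraries of C2C12 cells, 4 per PFOS dose, were assigned to their dose by sample title. The authors' deposited file holds raw counts, 1 whole number for each gene and library. Reads were aligned with HISAT2 and the build was GRCm39, per the submitters' processing notes. No source used here gives the counting program, its strand setting or the annotation. Of 54495 genes shared with GENCODE release M21 (GRCm38), 98.3% had the same position, the 35 members included, so coordinates are named GRCm38. From the deposited counts, edgeR 4.0.16 (R 4.3.3) fitted 1 model over 12 libraries with TMM scaling and filterByExpr by dose, which kept 16038 genes and left out 38494. Genes were called at an adjusted p under 0.05. The SE was taken as the size of the log2 fold change over the root of its F value. RPKM is CPM per kilobase of the table's gene length. The steps were tested on simulated counts.

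Described in full were members called in any comparison, the sensors, Hspa5, Hsp90b1, Calr and P4hb, and from each further list the 3 genes with the smallest adjusted p. The members and lists were chosen with earlier results of these data known. Replicate numbers did not pair the libraries. DESeq2 1.42.0, limma-voom (limma 3.58.1), other scalings, filters and sample sets were alternatives, and the removal of length and GC trends was added after the data were seen. Promoter sequences came from RefSeq.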

Additional observations from a re-analysis of the deposited data

Results flagged for a closer look

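In 3 of 102 groups of 4 libraries, 1 library of a member stood apart from the other 3 by Dixon's test, where chance flags about 1 in 20. Erp44 was at 71.3 CPM in 2 µM replicate 3 against 80.7 to 81.4 CPM in the other 2 µM libraries. Edem1 was at 182 CPM in 2 µM replicate 1 against 164 to 166 CPM. Edem3 was at 62.9 CPM in 0 µM replicate 2 against 65.6 to 66.1 CPM. None of these genes was called in any comparison.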

How the results depend on the processing

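Across 21 alternative settings, 2142 log2 values of members were recomputed. No called value changed sign, 9 calls were lost and 22 gained, and 120 uncalled values changed sign, the largest of them 0.061 in size. The calls of Atf6 at 2 µM and of Sdf2l1 at both doses held in all 21 settings, with adjusted p up to 0.0334, 0.0427 and 0.000511. Members called higher at 2 µM numbered 2 with DESeq2, without a count filter and with length and GC trends removed, and 1 to 2 over the fits without a single library. Members called higher at 6 µM numbered 2 with DESeq2 and 0 to 2 without a single library, the 2 being without 0 µM replicate 4. Those called lower at 6 µM numbered 5 with upper-quartile scaling, 6 with DESeq2, 1 without the 3 most deviating libraries (0 µM replicate 1, 6 µM replicates 2 and 3), and 2 to 5 without a single library, 5 being without 0 µM replicate 4. Between the doses the lower calls numbered 0 with the replicate block (Herpud1 adjusted p = 0.0651), 0 without the 3 most deviating libraries (0.0811), and 0 to 1 without a single library.

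Over all genes, the 258 higher and 119 lower calls at 2 µM were 530 and 214 with DESeq2, 438 and 193 without a filter, 430 and 205 with trends removed, and 72 to 322 and 34 to 168 without a single library. The 735 and 587 at 6 µM were 408 and 302 without the 3 libraries. They were 513 to 789 and 398 to 592 without a single library, and at most 1102 and 726 in any setting. The 90 and 88 between the doses were 220 and 197 with DESeq2, 177 and 224 without a filter, 174 and 133 with only those doses fitted, and 45 to 138 and 33 to 121 without a single library. The replicate numbers did not mark shared spread: correlations of the 12 same-number pairs ranged from -0.0982 to 0.0451, and 2 of 12 libraries correlated best with their own number. Derl3, with 30 counts over the 12 libraries, was too low to be tested.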
